A study of Rattus norvegicus with 24 samples.

Results

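Vascular endothelial growth factor (VEGF) ligands, their receptors and their neuropilin co-receptors were measured in microvessels and whole tissue of rat retina and brain. The family was taken as 7 named genes, the receptors Flt1 and Flt4, the ligands Vegfa, Vegfb and Pgf, and the neuropilins Nrp1 and Nrp2, out of 18166 genes measured. Each of the 7 is represented by a single transcript cluster on the array. The receptor gene Kdr was not analysed here.

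The groups were microvessels of the retina (RMVs), whole retinal tissue (RT), microvessels of the brain (BMVs) and whole brain tissue (BT), with 6 Affymetrix arrays each. All 4 groups came from the same male Wistar rats, 6 animals aged 12 weeks by the study's methods, with no treatment or genetic change. Frozen sections of each organ served as whole tissue, vessels included (for the retina a single section by the study's methods, but more by the labels, and several for the brain in both sources), and the other sections were homogenized mechanically and passed over a nylon mesh of 60 µm, which retained the microvessels. Such microvessels carry endothelial cells, pericytes, smooth muscle and whatever parenchyma adheres to them, so a signal of this preparation is not that of a pure endothelial cell. The labels call the 6 arrays of a group biological replicates, and the same 6 replicate numbers recur in all 4 groups without a statement that a number marks a rat. The 24 arrays are therefore not 24 independent animals, and the model without a block, which treats them as independent, does not take the shared rats into account.

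VEGF-A is secreted by parenchymal cells and acts on endothelial receptors to drive vessel growth and permeability. Flt1 encodes VEGF receptor 1, which binds VEGF-A, VEGF-B and placental growth factor (the product of Pgf) and whose soluble form traps these ligands. Flt4 encodes VEGF receptor 3, the receptor of VEGF-C and VEGF-D, best known from lymphatic endothelium and from sprouting vessels. Neuropilin 1 and neuropilin 2 bind VEGF forms and class 3 semaphorins and present them to the VEGF receptors and to plexins. In the retina the pathway is known for neovascular disease, in which its ligands are a drug target. A transcript cluster sums the forms of a gene, so that soluble and membrane-bound Flt1, or the splice forms of Vegfa, were not told apart.

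The sequences upstream of Flt1, Nrp1 and Pgf, which were high in both microvessel preparations, and of Vegfa, which was at similar levels in all groups, are printed to show promoters of genes on either side of this contrast. Each covers the 250 bases before the gene start in RefSeq on the rat build GRCr8, 5′ to 3′ on the strand of the gene. Capitals mark the core GCGTG, a core of the hypoxia response element, the palindromic cyclic AMP response element (CRE) TGACGTCA, and the TATA motif TATAAA, each searched on both strands, so that CACGC is the core GCGTG on the opposite strand. The window of Flt1 lies at chr12:12333180-12333429 on the plus strand, that of Nrp1 at chr19:73256307-73256556 on the plus strand, that of Pgf at chr6:110557748-110557997 on the minus strand, and the upstream one of both Vegfa windows at chr9:22452604-22452853 on the plus strand.
Flt1: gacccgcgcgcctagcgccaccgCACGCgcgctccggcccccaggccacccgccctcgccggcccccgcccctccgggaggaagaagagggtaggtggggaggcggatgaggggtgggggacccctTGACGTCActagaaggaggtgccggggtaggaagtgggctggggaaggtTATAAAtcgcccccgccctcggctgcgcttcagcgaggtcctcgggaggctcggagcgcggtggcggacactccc
Nrp1: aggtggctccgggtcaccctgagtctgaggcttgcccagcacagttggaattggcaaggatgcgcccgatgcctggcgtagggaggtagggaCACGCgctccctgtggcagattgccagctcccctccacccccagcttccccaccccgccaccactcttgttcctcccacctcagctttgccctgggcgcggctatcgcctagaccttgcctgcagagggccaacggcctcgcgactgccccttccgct
Pgf: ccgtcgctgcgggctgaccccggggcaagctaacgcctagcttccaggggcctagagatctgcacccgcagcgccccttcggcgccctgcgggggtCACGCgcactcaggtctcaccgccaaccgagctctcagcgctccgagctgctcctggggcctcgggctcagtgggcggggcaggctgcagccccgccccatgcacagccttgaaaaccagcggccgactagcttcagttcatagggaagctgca
Vegfa: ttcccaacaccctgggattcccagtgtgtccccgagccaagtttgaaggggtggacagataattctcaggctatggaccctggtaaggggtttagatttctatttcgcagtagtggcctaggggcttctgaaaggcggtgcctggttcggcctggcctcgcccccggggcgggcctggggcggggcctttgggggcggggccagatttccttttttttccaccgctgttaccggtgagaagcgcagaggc
In the Flt1 window the hypoxia core began 227 bases, the CRE 124 bases and the TATA motif 75 bases before the gene start. The hypoxia core began 158 bases before the start of Nrp1 and 154 bases before that of Pgf. Vegfb and Nrp2, which were not enriched in microvessels, held the same core 68 and 194 bases before their starts, and the windows of Flt4 and both windows of Vegfa held none of these motifs. Of all 33469 windows of this length, 25.9% held GCGTG on either strand, 1.59% held TGACGTCA and 12.9% held TATAAA. The other hypoxia core searched, ACGTG, was in 16.6% of windows and in none of those of the 7 genes. The GC box GGGCGG, which was not printed in capitals and was in 30.5% of windows, occurred in those of Flt1, Flt4, Vegfb, Pgf and the printed one of Vegfa. These matches describe letters and not binding. Bases further upstream were not searched, so a window without a motif does not speak for the whole promoter.

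The expression level was the deposited log2 signal. A gene was called higher or lower where it differed at least 2-fold, a log2 fold change (FC) of at least 1, with a limma adjusted p under 0.05 over all genes. Median array signals were 6.765 to 6.83 in RMVs, 6.10 to 6.216 in RT, 6.485 to 6.547 in BMVs and 5.808 to 5.948 in BT. On this scale the log2 FC of the median gene was 0.33 for RMVs over RT, and 0.30 for BMVs over BT, whereas after quantile normalization it was -0.15 in each organ. Differences of that size therefore depend on the scaling. Among all genes called, 91.6% were higher in RMVs than in RT as deposited, 50.4% after quantile normalization and 26.2% after centring each array on its median. For BMVs against BT these shares were 60.9%, 42.4% and 26.5%, for RMVs against BMVs 52.2%, 40.7% and 26.6%, and for RT against BT 36.1%, 35.3% and 20.5%.

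The labelled tissues were checked by marker genes. All 4 endothelial markers measured of 5 were called higher in both microvessel preparations, with a median log2 FC of 4.09 in the retina and 4.19 in the brain, and all 5 pericyte markers and all 3 measured smooth muscle markers were called higher too. Photoreceptor markers, in contrast, stayed within 2-fold between RMVs and RT. The photoreceptor transducin gene Gnat1 averaged 13.87 in RMVs and 14.03 in RT, and none of 4 photoreceptor markers was called in either direction. Neuron markers were called lower in BMVs than in BT for all 4, but in RMVs against RT for 1 of 4. The summed level of the 4 neuron markers was 13.2 to 13.5 in RMVs, 13.9 to 14.1 in RT, 12.2 to 12.5 in BMVs and 14.5 to 14.6 in BT. Arrays of a group correlated with each other at a Pearson r of 0.981 or more over all genes, and the highest r between any arrays was 0.989.

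The question of the comparison of microvessels with tissue was which transcripts are enriched in the vessels of each organ. Flt1, Flt4, Pgf and Nrp1 were called higher in RMVs than in RT and also in BMVs than in BT, which is 4 of 7 genes in each organ and no gene lower. The background over all genes was 10.3% called higher and 0.947% lower in the retina, and 16.3% and 10.5% in the brain. After quantile normalization the same 4 genes were called, against a background of 5.14% higher and 5.05% lower in the retina, and 9.91% and 13.5% in the brain. For these 4 genes all 6 microvessel arrays lay above all 6 tissue arrays in each organ, as they did for 42.6% of all genes in the retina and 40.8% in the brain, while arrays lay entirely below for 10.2% and 21.9%. Vegfa, Vegfb and Nrp2 were within 2-fold in both organs and their arrays overlapped.

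**Figure D1:**
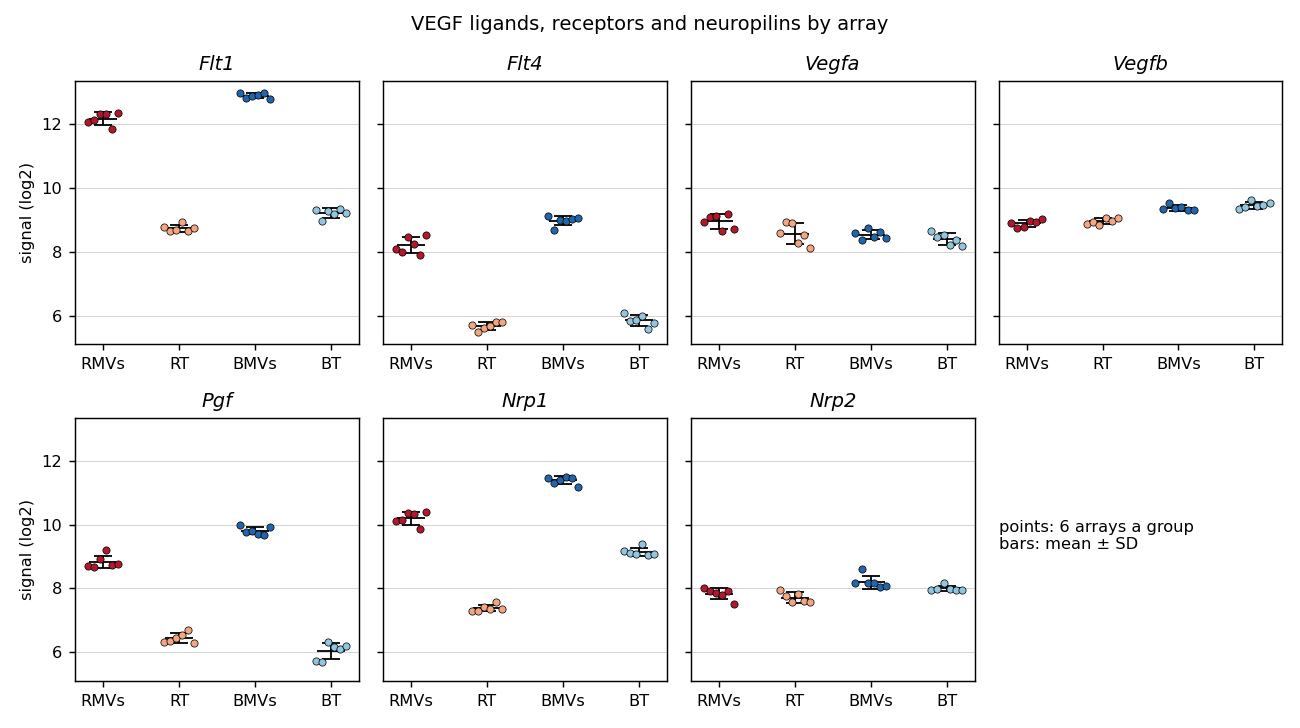
Deposited log2 signal (vertical axis) of each VEGF family gene on the 6 arrays of RMVs, RT, BMVs and BT (points, in order of the replicate number), with the mean and SD of each group. Flt1, Flt4, Pgf and Nrp1 stand apart between microvessels and tissue, while Vegfa lies between 8.13 and 9.19 on all 24 arrays.

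Flt1, the decoy-like receptor of the family, had log2 signals from 11.85 over a median of 12.22 to 12.36 in RMVs, and from 8.66 over 8.71 to 8.94 in RT. In BMVs it ran from 12.78 over 12.90 to 12.98, and in BT from 8.96 over 9.24 to 9.35. No array of any group overlapped with another group, and the order of the levels was BMVs, RMVs, BT and RT, with each neighbouring pair apart (the smallest step was 0.47 between BT and RT, adjusted p = 1.11e-05). Flt1 was 10.8-fold higher in RMVs than in RT (log2 FC 3.43 ± 0.08 SE, adjusted p = 2.77e-22) and 12.8-fold higher in BMVs than in BT (3.68 ± 0.08, adjusted p = 3.10e-23). These enrichments differed between retina and brain by -0.25 (95% confidence interval -0.49 to -0.01), which did not pass the adjustment as deposited (adjusted p = 0.0642) but was -0.29 with an adjusted p of 0.0291 after quantile normalization.

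Flt4, the VEGF-C receptor, was likewise highest in BMVs and next in RMVs. Its signals were 7.89, 8.17 and 8.52 (lowest, median and highest) in RMVs, against 5.48, 5.69 and 5.81 in RT. BMVs had 8.69, 9.02 and 9.11, against 5.56, 5.84 and 6.09 in BT. The microvessel arrays lay above all tissue arrays. On the deposited scale the arrays of BT and RT overlapped and did not differ beyond their spread (RT minus BT -0.17, adjusted p = 0.131). This difference was -0.46 (adjusted p = 0.00087) after quantile normalization and -0.44 (adjusted p = 0.00066) after centring on the array median. The FC was 5.74 in the retina (log2 2.52 ± 0.10 SE, adjusted p = 1.27e-17) and 8.73 in the brain (log2 3.13 ± 0.10, adjusted p = 2.95e-20). Enrichment was weaker in the retina (difference -0.61 ± 0.14 SE, adjusted p = 0.000696), by less than 2-fold.

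Because Flt4 is a known gene of lymphatic endothelium, lymphatic markers were looked at beside it. Of 4 such markers, as deposited none was called in RMVs against RT, and 1 was called higher in BMVs than in BT. This was Lyve1, a hyaluronan receptor that perivascular macrophages share, with 8.03 in BMVs and 5.86 in BT. Prox1, the transcription factor that defines lymphatic identity, averaged 7.83 in RMVs and 8.54 in RT, and 5.77 in BMVs and 6.24 in BT. It was thus lower in vessels than in tissue in each organ, and was called higher in RT than in BT (log2 FC 2.30). The cells that gave the Prox1 signal were not identified, so it cannot be read as that of lymphatic cells. The summed level of the 4 lymphatic markers ran from 9.66 to 10.4 in RMVs, from 10.4 to 10.9 in RT, from 9.84 to 10.2 in BMVs and from 9.28 to 9.70 in BT. Prox1 and Pdpn had lower signals in RMVs than in RT (log2 FC -0.71 and -0.85), within 2-fold as deposited. After quantile normalization both were called lower in RMVs than in RT, and Prox1 was also called lower in BMVs than in BT. The part of lymphatic cells in the level of Flt4 was not tested in either organ.

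Pgf was the ligand enriched in microvessels. Its product is placental growth factor, which binds Flt1 but not the VEGF receptor encoded by Kdr. Pgf signals were 8.67, 8.74 and 9.19 in RMVs, against 6.28, 6.41 and 6.70 in RT. They were 9.67, 9.79 and 9.98 in BMVs, against 5.69, 6.13 and 6.32 in BT. Every microvessel array lay above every tissue array, and the retina and the brain stood in opposite order in vessels and in tissue. The FC was 5.24 in the retina (log2 2.39 ± 0.11 SE, adjusted p = 1.07e-16) and 13.7 in the brain (log2 3.77 ± 0.11, adjusted p = 1.72e-21).

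Enrichment of Pgf was thus 2.61-fold smaller in the retina than in the brain (difference -1.38 ± 0.15 SE, adjusted p = 9.82e-09). It was the only family gene called in this interaction of organ and compartment, and 10.4% of all genes were called with a larger and 5.15% with a smaller enrichment in the retina. The difference had parts on both sides, as Pgf was lower in RMVs than in BMVs (log2 FC -0.98) and higher in RT than in BT by 0.40 (adjusted p = 0.00136, overlapping arrays). The tissue part was 0.17 after quantile normalization (adjusted p = 0.152), while the interaction was -1.201 (adjusted p = 1.25e-07).

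Vegfa, the central ligand, showed no enrichment of the size of the receptors. Its signals were 8.64, 9.01 and 9.19 in RMVs, against 8.13, 8.56 and 8.94 in RT. They were 8.36, 8.53 and 8.74 in BMVs, against 8.17, 8.42 and 8.65 in BT. The arrays of all groups overlapped, with the highest mean in RMVs. Vegfa was 1.31-fold higher in RMVs than in RT (log2 FC 0.39 ± 0.12 SE, adjusted p = 0.00674) on the deposited scale, which is 0.06 above the shift of the median gene, and its log2 FC was 0.13 (adjusted p = 0.373) after quantile normalization and -0.25 (adjusted p = 0.0843) after centring on the array median. In the brain the log2 FC was 0.13 as deposited (95% confidence interval -0.12 to 0.39, adjusted p = 0.318), -0.04 after quantile normalization and -0.48 after centring (adjusted p = 0.00194). In the order RMVs, RT, BMVs and BT, RT did not differ from BMVs beyond the spread (adjusted p = 0.866), nor BMVs from BT. Photoreceptor markers were within 2-fold between RMVs and RT, and the part of parenchymal RNA in the levels of Vegfa, Vegfb and Nrp2 in RMVs was not tested.

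Vegfb, which binds Flt1 and Nrp1 and is known for roles in fatty acid handling and cell survival, differed more between the organs than between vessels and tissue on the deposited scale. Its signals were 8.76, 8.92 and 9.02 in RMVs, against 8.85, 8.96 and 9.06 in RT, and the arrays overlapped (log2 FC -0.07, adjusted p = 0.351). They were 9.31, 9.35 and 9.53 in BMVs, against 9.32, 9.44 and 9.63 in BT, again with overlap (-0.09, adjusted p = 0.217). Both confidence intervals, -0.20 to 0.07 in the retina and -0.22 to 0.05 in the brain, left less than a 2-fold difference on the deposited scale. After quantile normalization the retinal value was -0.33 (adjusted p = 0.000168) and the brain value -0.09 (adjusted p = 0.266). After centring on the array median Vegfb was lower in vessels of both organs, at -0.71 in the retina (adjusted p = 3.16e-11) and -0.70 in the brain (adjusted p = 2.33e-11), close to its differences of retina minus brain on that scale, -0.78 in vessels and -0.77 in tissue. As deposited, every retinal array lay below every brain array of the same compartment.

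Nrp1, the co-receptor of VEGF-A and of semaphorin 3A, was enriched in both vessel preparations and had the largest differences of the 7 genes between the organs, in vessels and in tissue. Its signals were 9.85, 10.24 and 10.40 in RMVs, against 7.29, 7.36 and 7.56 in RT. They were 11.19, 11.44 and 11.51 in BMVs, against 9.04, 9.09 and 9.39 in BT. All 4 groups were apart without overlap, in the order BMVs, RMVs, BT and RT, and the smallest step was 1.06 between RMVs and BT (adjusted p = 6.57e-12). The FC was 7.06 in the retina (log2 2.82 ± 0.08 SE, adjusted p = 2.19e-20) and 4.77 in the brain (log2 2.25 ± 0.08, adjusted p = 5.55e-19). Opposite to Flt4 and Pgf, enrichment of Nrp1 was larger in the retina, by 0.57 ± 0.12 SE (adjusted p = 0.000192), a difference under 2-fold, and Nrp1 was 3.39-fold lower in RT than in BT.

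Nrp2, the neuropilin of VEGF-C and semaphorin 3F, was not called in any comparison. Its signals were 7.52, 7.89 and 8.01 in RMVs, against 7.56, 7.67 and 7.96 in RT. They were 8.03, 8.16 and 8.60 in BMVs, against 7.94, 7.97 and 8.17 in BT. The arrays of vessels and tissue overlapped in each organ. The log2 FC was 0.12 in the retina (adjusted p = 0.226) and 0.20 in the brain (adjusted p = 0.0484) as deposited, and had the opposite sign after quantile normalization, at -0.39 (adjusted p = 0.00101) and -0.05 (adjusted p = 0.623).

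**Figure D2:**
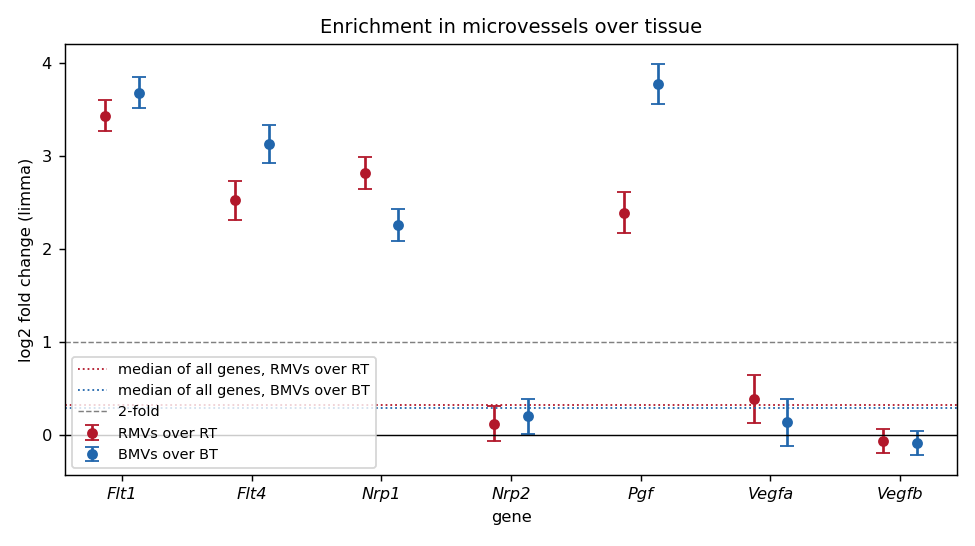
Log2 fold change from limma with its 95% confidence interval (vertical axis) of each family gene (horizontal axis) for the retina (RMVs over RT) and the brain (BMVs over BT), as deposited. Dotted lines give the median of all genes, 0.33 in the retina and 0.30 in the brain, and the dashed line marks 2-fold. Flt1, Flt4, Nrp1 and Pgf lie above 2-fold in both organs, with Pgf at 2.39 in the retina and 3.77 in the brain.

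The comparison of RMVs with BMVs asked how vessels of the retina and the brain differ from each other. Nrp1 was called lower in RMVs (2.29-fold, log2 FC -1.19 ± 0.08 SE, adjusted p = 1.98e-12), and none of the 7 genes was called higher, against 5.25% of all genes called lower and 5.72% called higher as deposited. After quantile normalization 2 of the 7 were called lower, Nrp1 and Pgf, both at -1.03, and none higher. The shares of all genes were 7.10% lower and 4.86% higher. After centring on the array median 4 were called lower (Flt1 and Flt4 in addition). That centring put the median gene at -0.22, and of all genes called under it 26.6% were higher. As deposited, Pgf was just under the threshold at -0.98 (adjusted p = 7.56e-09), followed by Flt4 at -0.78 (adjusted p = 1.94e-07), Flt1 at -0.72 (adjusted p = 1.72e-08), Vegfb at -0.49 (adjusted p = 2.46e-07) and Nrp2 at -0.36 (adjusted p = 0.00118). For these 6 genes every RMV array lay below every BMV array, as was the case for 21.5% of all genes, while 25.4% had every RMV array above. Vegfa was the exception, higher in RMVs by 0.41 ± 0.12 SE (adjusted p = 0.00501) with overlapping arrays. Its value was 0.44 after quantile normalization (adjusted p = 0.00319), but 0.12 after centring on the array median (adjusted p = 0.45).

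Endothelial markers moved the same way. Their log2 FC in RMVs against BMVs had a median of -0.67 and a range of -1.21 to -0.37, with 1 of 4 called lower. This was the vessel growth receptor Tek, at 11.23 in RMVs and 12.44 in BMVs. Their summed level was 13.8 to 14.3 in RMVs, 9.78 to 10.3 in RT, 14.7 to 14.8 in BMVs and 10.98 to 11.16 in BT. In such bulk samples fewer endothelial cells and less RNA per cell cannot be told apart. When each array was centred on the mean of the 4 endothelial markers, Flt1 was at 0.01 (adjusted p = 0.887), Flt4 at -0.04 and Pgf at -0.25 (adjusted p = 0.0733) in RMVs relative to BMVs. On that scale Nrp1 was at -0.46 (adjusted p = 0.000179), within 2-fold, Nrp2 and Vegfb were higher by 0.37 (adjusted p = 0.00637) and 0.25 (adjusted p = 0.0285), and Vegfa was 1.15 higher (adjusted p = 2.70e-08). This scaling shifts the value of every gene by the same amount, set by the marker means of 11.89 in RMVs and 12.63 in BMVs. The values of Vegfa, Vegfb and Nrp2, which were not called enriched in vessels, therefore include that shift of the markers. This scaling was chosen after the values were seen.

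**Figure D3:**
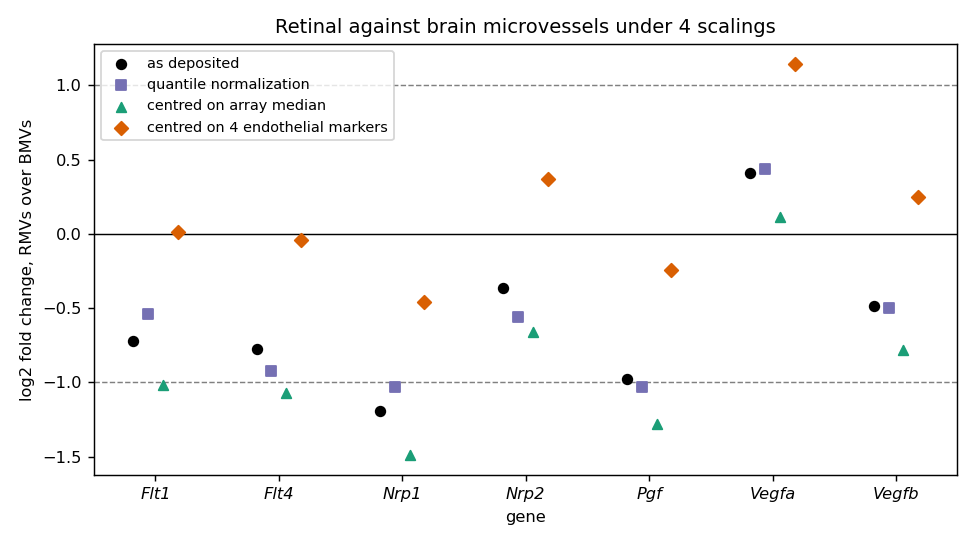
Log2 fold change of RMVs over BMVs (vertical axis) of each family gene (horizontal axis) as deposited, after quantile normalization, after centring on the array median and after centring on 4 endothelial markers. Dashed lines mark 2-fold. Flt1 moves between -1.02 and 0.01 with the scaling, Nrp1 is below 0 in all 4, and Vegfa is above 0 in all 4, between 0.12 and 1.15. The Vegfa value of 0.12, after centring on the array median, did not differ from 0 beyond the spread (limma adjusted p = 0.45).

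Markers of some other cells differed between both vessel preparations as well. Of 5 pericyte markers none was called in RMVs against BMVs. Their median was -0.27, with values from -0.75 (Cspg4) to 0.36 (Abcc9). Of 3 measured smooth muscle markers 1 was called lower, with a median of -0.92. All 4 fibroblast markers and all 4 macrophage markers were called lower in RMVs than in BMVs, with medians of -4.24 and -2.97. The summed fibroblast level was 8.68 to 9.27 in RMVs, 7.43 to 7.48 in RT, 12.97 to 13.36 in BMVs and 9.09 to 9.65 in BT, with the collagen-binding proteoglycan gene Dcn at 5.98 in RMVs and 12.73 in BMVs. For macrophages the sums were 8.32 to 8.62 in RMVs, 7.01 to 7.26 in RT, 10.9 to 11.2 in BMVs and 7.68 to 7.97 in BT. Photoreceptor markers stood the other way, at 14.8 to 15.1 in RMVs, 15.1 to 15.2 in RT, 7.29 to 7.496 in BMVs and 6.92 to 7.26 in BT. The part of these cells in the differences of Pgf, Nrp1, Flt4 and Vegfa between RMVs and BMVs was not tested.

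Between the tissues, Nrp1 was called lower in RT than in BT (log2 FC -1.76 ± 0.08 SE, adjusted p = 2.10e-16), and none of the 7 was called higher. The background was 11.1% lower and 6.29% higher. Vegfb (-0.50, adjusted p = 9.00e-08), Flt1 (-0.47) and Nrp2 (-0.29, adjusted p = 0.00739) were lower in RT by less than 2-fold. For Nrp1, Vegfb and Flt1 every RT array lay below every BT array, which held for 26.7% of all genes, whereas 22.0% had every RT array above. Vegfa was at 0.16 (adjusted p = 0.258) with its arrays mixed. Endothelial markers had a median of -0.93 in RT against BT with 2 of 4 called lower, and astrocyte markers were called lower for all 3 measured. Their part in these values was not tested.

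Across the 24 arrays, Flt1 and Flt4 had a Pearson r of 0.993, Flt1 and Pgf 0.975, and Flt1 and Nrp1 0.925, while Vegfa and Vegfb had -0.64. These values describe levels that the 6 arrays of a group share. The genes with the pattern most like Flt1 among all 18166 were Wasf2, an actin regulator, with an r of 0.998, Xdh (xanthine dehydrogenase, 0.997) and Id1 (an inhibitor of basic helix-loop-helix factors, 0.997). Flt4 was most like the endothelial guidance receptor gene Robo4 (0.995), then Zfp36l1 and Plekhg2. Pgf was most like Ager, Il1r1 and Crispld2, all at 0.993. For Nrp1 the nearest were Ptprg, Palmd and the receptor tyrosine kinase gene Axl, at 0.995 or more. Vegfb was most like Phkg1 (0.947), the astrocyte gene Gfap (0.944) and the myelin gene Mog (0.941). Vegfa and Nrp2 had no gene above 0.832, with C1h6orf120, Kbtbd6 and Olr1428 nearest to Vegfa, and Kcnj12, Tp53i11 and Npy1r nearest to Nrp2.

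Vegfa had an SD of 0.22 in RMVs and 0.33 in RT, the highest SD of the family in RT, and its deviations recurred by replicate number. The arrays numbered 4 lay below their group mean in all 4 groups, at -0.22 on average, and those numbered 6 too, at -0.25, while those numbered 3 lay above in all 4, by 0.22. In RMVs the arrays 1 to 6 had 8.94, 9.08, 9.12, 8.64, 9.19 and 8.73, and in RT 8.58, 8.94, 8.91, 8.27, 8.53 and 8.13. BMVs had 8.60, 8.36, 8.74, 8.47, 8.62 and 8.42, and BT had 8.65, 8.47, 8.54, 8.21, 8.38 and 8.17. The replicate number as a term of the model gave Vegfa an F of 6.12 with an unadjusted p of 0.00122, rank 110 of all genes. It did not pass the adjustment (limma adjusted p = 0.201), and 0.193% of all genes did. The other 6 family genes had adjusted p of 0.759 or more. Runs on the same side were not particular to Vegfa. Arrays numbered 2 lay below their group mean in all 4 groups for Flt1, Flt4, Pgf and Nrp1. Their mean deviations were -0.12, -0.17, -0.16 and -0.06. For Nrp2 the arrays numbered 6 did so, at -0.15. How many of all genes have such runs was not counted. With the number as a block, the SE of Vegfa was 0.09 and its enrichment in RMVs had an adjusted p of 0.000472. This pattern was noticed after the values were seen. The summed level of 4 pigment epithelium markers also varied among retinal arrays, from 8.26 to 11.1 in RT and from 8.42 to 9.89 in RMVs. In BMVs it was 7.52 to 8.06 and in BT 6.93 to 7.35. The part of pigment epithelium in the level and spread of Vegfa was not tested.

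**Figure D4:**
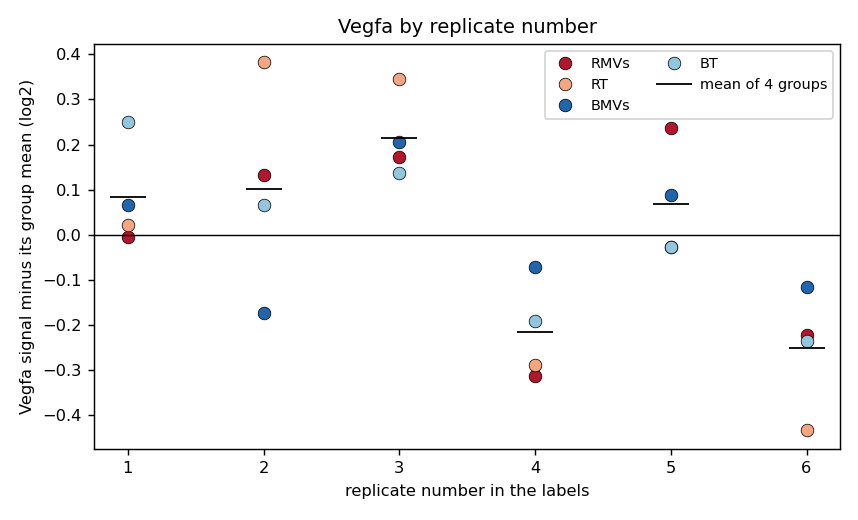
Vegfa signal minus the mean of its group (log2, vertical axis) by the replicate number in the labels (horizontal axis), with a point for each array of RMVs, RT, BMVs and BT and a bar for the mean of the 4 groups. The points of numbers 4 and 6 are all below 0, with means of -0.22 and -0.25, and those of number 3 are all above.

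Other genes of the pathway were counted from lists and read against the backgrounds above. Of the remaining ligands, Vegfc was called higher in both vessel preparations (8.51 in RMVs and 6.29 in RT, 9.72 in BMVs and 7.38 in BT, log2 FC 2.22 and 2.34) and lower in RMVs than in BMVs (-1.21). Vegfd, the other ligand of Flt4, was at 0.93 in the retina and 0.36 in the brain. So the transcripts of Flt4 and of its ligand Vegfc, and of Flt1 and its ligand Pgf, were both higher in vessels than in tissue, whereas those of Vegfa and Vegfb were not called.

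Of 7 class 3 semaphorins, the ligands that share the neuropilins with VEGF, 2 were called higher in RMVs than in RT and none lower (1 higher and 2 lower after quantile normalization), with a median log2 FC of 0.13 beside 0.33 for all genes. In BMVs against BT 3 were higher and 3 lower, with a median of 0.37 beside 0.30. Sema3g, known from arterial endothelium, was called higher in both (1.97 and 2.75), as was Sema3c (1.09 and 1.20). After quantile normalization Sema3c was not called in RMVs. The neuronal guidance genes Sema3e (-2.65) and Sema3a (-2.37) were called lower in BMVs, and were at -0.97 and -0.78 in RMVs. Neuron markers were likewise called lower in BMVs for 4 of 4 and in RMVs for 1 of 4, and their part in this was not tested. Sema3d (-1.76) was called lower and Sema3f (1.18) higher in BMVs, but Sema3f was not called there after quantile normalization.

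Of 3 measured plexins of 5, the signaling partners of the neuropilins, 2 were called higher in RMVs, and 1 higher and 1 lower in BMVs. Their medians were 1.05 and 0.39, beside 0.33 and 0.30 for all genes. Plxnd1, the endothelial receptor of semaphorin 3E, was at 9.77 in RMVs and 6.82 in RT (2.95), and at 10.92 in BMVs and 8.45 in BT (2.47). Plxna2 was at 1.05 and 0.39, and Plxna3 at -0.35 and -1.04, in the retina and the brain. After quantile normalization 1 of the 3 was called higher in RMVs.

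Of 10 genes that sense or transmit hypoxia, the known inducer of Vegfa, 1 was called higher in RMVs, and 3 higher and 2 lower in BMVs. The count in RMVs is near the 10.3% of all genes called higher there. In BMVs the shares of all genes were 16.3% higher and 10.5% lower. The medians of the list, 0.15 and 0.12, were below those of all genes, 0.33 and 0.30. Epas1, which encodes the endothelial hypoxia-inducible factor 2α, was the gene called higher in both (13.21 in RMVs and 11.60 in RT, 13.50 in BMVs and 11.33 in BT, log2 FC 1.61 and 2.17). Arnt, its dimerization partner, was at 0.25 in the retina and was called higher in the brain (1.49), as was Hif3a (1.37). Egln3, a prolyl hydroxylase (-1.57), and Arnt2 (-1.09) were called lower in BMVs. Hif3a and Arnt2 were not called in BMVs after quantile normalization. Hif1a was called higher in RMVs than in BMVs (1.29) and in RT than in BT (1.82), and was named after its values were seen. After quantile normalization 1 of the 10 was called higher and 1 lower in RMVs, and 2 higher and 1 lower in BMVs.

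Measured were 15 genes of 16 that act downstream of the VEGF receptors. Of these, 4 were called higher and 1 lower in RMVs, and 5 higher and 1 lower in BMVs. Their medians were 0.58 and 0.93, beside 0.33 and 0.30 for all genes. Nos3, the endothelial nitric oxide synthase, rose most (10.07 in RMVs and 6.46 in RT, 10.99 in BMVs and 7.09 in BT, log2 FC 3.61 and 3.91), followed by the heat shock protein gene Hspb1 (2.83 and 3.38). Nfatc2 (1.11 and 1.47) was called higher in both organs as well, but in neither organ after quantile normalization. Plcg1, the phospholipase bound by the activated receptor, was also called higher in both (1.44 and 1.46). Src (-1.19) was called lower in RMVs, and the protein kinase C gene Prkcb (-2.10), which neurons also express, in BMVs. In RMVs against BMVs none of the 15 was called higher and 3 lower, against 5.72% and 5.25% of all genes. Quantile normalization left 3 of the 15 called higher in RMVs and 4 in BMVs.

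Of 5 measured receptor partners of 10, Cdh5 (VE-cadherin, 3.98 and 4.21) and Dab2 (an endocytic adaptor, 3.94 and 3.55) were called higher in the retina and the brain, and no gene lower. Medians of the 5 were 0.47 and 0.34, beside 0.33 and 0.30 for all genes. Cdh5 is also among the endothelial markers above. Of 8 genes that VEGF induces in endothelium, 2 were called higher in RMVs, and 3 higher and 1 lower in BMVs. Medians of the 8 were 0.69 and 0.51, beside 0.33 and 0.30 for all genes. Dll4, the Notch ligand of tip cells, was called higher in both (3.26 and 4.09), as was Angpt2 (1.36 and 2.74). Angpt2 was not called in RMVs after quantile normalization. The protease gene Adamts1 was called higher in BMVs (3.48) and was at 0.66 in RMVs, with 9.39 in RMVs and 8.73 in RT, and 9.98 in BMVs and 6.51 in BT. Egr3 (-1.40) was called lower in BMVs. Of these 8 genes, 1 was called higher in RMVs after quantile normalization.

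**Figure D5:**
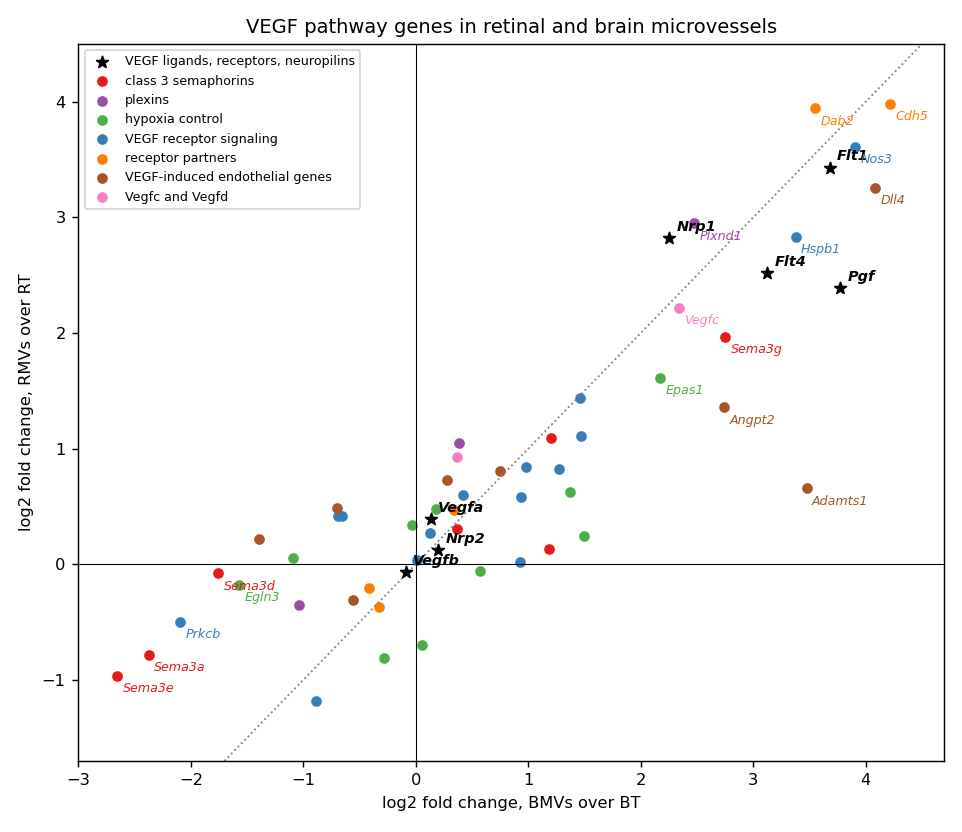
Log2 fold change of BMVs over BT (horizontal axis) and of RMVs over RT (vertical axis) of the VEGF family genes (stars) and of the other pathway genes by list (points), as deposited. The dotted line marks equal enrichment, and other genes are named where either value is at least 1.5 in size. Pgf (3.77 and 2.39) and Adamts1 (3.48 and 0.66) lie to the right of the line, and Nrp1 (2.25 and 2.82) lies above it.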

How the data were processed

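RNA of RMVs, RT, BMVs and BT, amplified from 1 ng each with a stated minimal RNA integrity number of 8, was hybridized to 24 arrays. The authors processed the arrays in the Affymetrix Expression Console (version 4.0, per the submitters' processing notes) and deposited log2 signals. How signals were normalized and summarized is not given in the sources used here, and precision is limited by the number of arrays. Of 36685 transcript clusters, 18511 carried 1 gene symbol, 575 carried several and were left out, and 17599 had none. The cluster with the highest mean was kept per gene, which gave 18166 genes.

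Groups and replicate numbers came from the sample labels. Values were used as deposited. A single limma model (limma 3.58.1 in R 4.3.3) of the 4 groups without a replicate block was fitted to all genes, moderated by empirical Bayes (5.73 prior degrees of freedom), two-sided tests and the adjustment of Benjamini and Hochberg over all genes. Vessels were contrasted with tissue within each organ, retina with brain within vessels and within tissue, and the enrichment in the retina with that in the brain, and 2 further contrasts served only to order the group levels. The fit was tested on simulated data with known changes. Summed marker levels are log2 of the summed linear signals.

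All 7 family genes were named. From each pathway list up to 4 genes with the largest change between vessels and tissue and up to 2 called against the majority were named, and for each family gene the 3 genes of highest correlation. The family genes and lists were chosen with earlier results of these data known. Promoter windows came from RefSeq (GRCr8), and all 7 symbols matched. Alternatives were quantile normalization, array centring, other cluster and signal filters (first quartile 5.728, median 7.301), other moderation, a replicate block, a 1.5-fold threshold and leaving out each array.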

Additional observations from a re-analysis of the deposited data

Results flagged for a closer look

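In 28 combinations of a family gene and a group, a sample standing far from the other 5 was looked for, which chance alone would give in about 1 of 20. Flt4 was low on the BMV array 2 (8.69, nearest 8.96), Nrp2 was high on the same array (8.60, nearest 8.17), Nrp1 was high on the BT array 4 (9.39, nearest 9.16) and Nrp2 was high on the BT array 3 (8.17, nearest 7.997).

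By limma adjusted p alone, as deposited, enrichment in vessels differed between retina and brain for 3 family genes. The values were -0.61 for Flt4, -1.38 for Pgf and 0.57 for Nrp1 (retina minus brain, log2). Only Pgf also passed the 2-fold threshold. After quantile normalization Flt1 (limma adjusted p = 0.029), Vegfb (0.035) and Nrp2 (0.039) were under 0.05 too. The share of all genes that pass by adjusted p alone was not counted.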

How the results depend on the processing

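Of 303 values of single genes under the planned settings other than leaving out an array, 285 kept their direction and their side of the threshold, 8 newly passed it and 10 changed sign, and of 504 values without 1 array, 497 kept both. The calls of Flt1, Flt4, Pgf and Nrp1 in vessels over tissue held in every setting run. The filter at the median signal removed Flt4, which has no value there. After quantile normalization the sign changed for Nrp2 in RMVs over RT (-0.390) and BMVs over BT (-0.0543), for Vegfa in BMVs over BT (-0.0443) and for the difference in enrichment of Vegfb (-0.25). After centring on the array median it changed for Vegfa (-0.25) and Nrp2 (-0.52) in RMVs over RT, for Vegfa (-0.48) and Nrp2 (-0.41) in BMVs over BT, for Vegfa in RT over BT (-0.10) and for the difference of Vegfb (-0.0145). The cause was not tested beyond the shift of all genes that these scalings make. With 1 array left out, the difference of Vegfb ran from -0.0148 to 0.0503 and that of Nrp2 from -0.111 to 0.00325, the highest without the BMV array 2. Centring on endothelial markers, chosen after seeing the data, turned Flt1 (0.0138), Vegfb (0.25) and Nrp2 (0.37) in RMVs over BMVs.

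The number of family genes called lower in RMVs than in BMVs, 1 as deposited, was 2 after quantile normalization, with Pgf at -1.03, 4 after centring on the array median and 4 at the 1.5-fold threshold, and ran from 1 to 2 with 1 array left out. It was 2 without the BMV array 5, the RMV array 3 or the RMV array 4, where Pgf was at -1.008, -1.001 and -1.052. The number with a smaller enrichment in the retina was 2 at the 1.5-fold threshold, with Flt4. The shares of all genes called after centring on the array median or at the 1.5-fold threshold were not counted.

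The 4 groups share the same 6 rats, but the labels do not tie numbers to rats. Replicate numbers were therefore not used as pairs in the main model. Correlations of deviations between same-numbered arrays were low, with means of 0.03 to 0.08 and a minimum of -0.09. Means between arrays of different number were lower in every pair of groups, at -0.015 to -0.005. Deviations cancel out over the arrays of a group, so these means largely follow from the same-number means and are no separate comparison. Whether a number marks a rat was not settled by these values. With the replicate block, 4, 4, 1, 1 and 1 family genes were called in the 5 contrasts, as without it, and over all genes 2830 were called in the difference in enrichment, against 2828. Of 6 arrays, 1 to 5 correlated best with their own number, depending on the pair of groups. Flt4 in RT and BT (means 5.68 and 5.85) lay near the first quartile of all gene signals (5.728), and no background signal was used here to bound it.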
